A study of Rattus norvegicus with 4 samples.

Results

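Actin-binding and focal adhesion genes encode the proteins that build, cut, crosslink and pull on actin filaments and that tie those filaments to the cell membrane and, through integrins, to the extracellular matrix. Profilins, cofilins and thymosins handle actin subunits, the Arp2/3 complex starts branched filaments, actinins and filamins crosslink them, and myosin with tropomyosin makes them contractile. Talin, vinculin, paxillin and zyxin form the plaque at which integrins hold on to these filaments, and the kinase FAK (Ptk2) signals there. In developing neural tissue the same proteins shape dividing progenitors, migrating cells and growth cones.

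The genes described here are a list of 40 symbols, each read through its brightest probe set, the one with the highest mean over all 4 arrays, among probe sets that the platform's annotation gives exactly 1 symbol. That brightness chose the probe sets, and it ran from 5.48 log2 (Pdlim5) to 13.79 log2 (Tmsb4x) among the tested members. Of the 40 genes, 35 had such a probe set among 14217 genes in all. Actb, Cfl1, Dstn, Tmsb10 and Myl6 did not, with the array's control probe sets left out. Tpm2 was too dim to be tested (under 4.77 log2, the lowest 30% of probe sets), which left 34 tested genes among 11491.

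The cells were neurospheres, floating clusters grown from dissociated retinae of pooled Sprague Dawley rat embryos at embryonic day 18. The first group grew with epidermal growth factor (EGF) and endothelial cell conditioned medium (ECCM, medium in which cells that line blood vessels had been kept), and the other grew with EGF alone, so EGF was common to both. Each group had 2 arrays, labelled biological replicates 1 and 2. The study describes 1 pool of 10 embryos cultured in both media and a second pooled batch as the replicate, but no label ties a replicate number to a pool. The labels give neither the source of the endothelial cells nor the days in culture. No group received the conditioned medium without EGF.

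Deposited array medians were 6.84 and 6.56 log2 with conditioned medium, against 6.03 and 6.25 log2 with EGF alone, so the arrays had not been equalised. Levels and differences below are therefore quantile normalized log2 values with the standard error (SE) of limma unless they are called deposited. "Rose" is used of a gene with a limma adjusted p under 0.05 in the same direction on quantile normalized, deposited and median-centred values. For beta-actin, the 3′ control read above the 5′ control, a gap that degraded RNA widens, by 1.54 and 1.37 log2 with conditioned medium, against 1.99 and 2.08 log2 with EGF alone. The eye-field genes Pax6 and Rax were bright in both groups. Pax6 was at 12.71 and 12.59 log2 with conditioned medium, against 12.77 and 12.85 log2 with EGF alone. Rax was at 11.49 and 11.54 log2 with conditioned medium, against 11.68 and 11.82 log2 with EGF alone. Both were lower in both conditioned-medium arrays, as were 32.6% of all tested genes, and neither passed under all 3 scalings. Six3 was dimmer, at means of 6.80 and 6.76 log2. Marker counts are read against all tested genes, of which 9.12% rose and 1.78% fell. Of 10 tested retinal progenitor markers 5 rose, while 8 of 11 photoreceptor markers and 4 of 11 retinal neuron markers fell. Among 12 endothelial markers with a probe set, Pecam1, Tek, Tie1, Emcn and Erg fell under the brightness limit, and 1 of the other 7, Esam, rose. In 4 of the 7 both conditioned-medium arrays lay above both EGF arrays, as in 33.6% of all tested genes, and 3 overlapped. Kdr was bright, at 12.41 and 12.39 log2 with conditioned medium, against 11.95 and 12.03 log2 with EGF alone. Kdr passed after quantile normalization and as deposited, but not with median-centred arrays. Lens markers rose in 3 of 7 tested genes, and none of 4 astrocyte and 4 pigment epithelium markers passed the threshold under all 3 scalings. Of the pigment epithelium markers, Dct and Rlbp1 passed it lower after quantile normalization (-0.78 and -0.70 log2) and with median-centred arrays, but not as deposited. Pmel and Ttr differed by 0.37 and 0.23 log2. Of 13 microglia markers 11 were tested and 8 rose, and of 17 mesenchymal markers 11 were tested and 8 rose. The mean level of the 11 tested microglia markers was 6.67 and 6.75 log2 with conditioned medium, against 5.75 and 5.85 log2 with EGF alone, and that of the mesenchymal markers was 6.74 and 6.93 log2, against 5.81 and 5.75 log2. Under the brightness limit were Itgam and C1qb of the microglia list and Dcn, Lum, Cspg4, Rgs5, Cnn1 and Thy1 of the mesenchymal list. These markers and the actin gap moved with every rise described below, and their part in it was not tested. In a culture of mixed cells, fewer cells of a type and less RNA per cell cannot be told apart.

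With conditioned medium 15 of the 34 tested genes rose and 0 fell, against 9.12% of all tested genes that rose and 1.78% that fell. Gelsolin (Gsn), which severs and caps filaments, showed the highest rise at 4.14-fold. Vinculin (Vcl), filamin C (Flnc), the Arp2/3 subunit Arpc1b, palladin (Palld), moesin (Msn) and the LIM protein Csrp1 rose by 2.87-, 2.71-, 2.51-, 2.39-, 2.13- and 2.04-fold. These 7 genes rose by at least 1 log2, as did 2.26% of all tested genes. Smaller rises, of 1.45- to 1.63-fold, were found for Pdlim1, Capg, Tpm4, Pfn1, Tpm1, Actn1, Flna and Zyx. The profilin Pfn2, the thymosin Tmsb4x, the myosin Myh10 and the membrane linkers Ezr and Rdx were not among them, although close relatives of several of these genes rose. On quantile normalized values alone, 23 of the 34 were past the threshold higher and 1 (Pfn2) lower, where 16.4% and 14.6% of all tested genes were. At an unadjusted limma p under 0.05, 0 genes of the list were lower under all 3 scalings, 1 after quantile normalization, 0 as deposited and 3 with median-centred arrays (Pfn2, Tmsb4x and Myh10). Of all tested genes 2.34% were lower at that threshold under all 3 scalings, 19.9% after quantile normalization, 2.34% as deposited and 38.4% with median-centred arrays.

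The list had a median difference of 0.52 log2, against 0.00 log2 for all tested genes. On deposited values the medians were 0.85 and 0.40 log2, and with median-centred arrays 0.28 and -0.16 log2. In 28 of the 34 genes both conditioned-medium arrays lay above both EGF arrays, and in 2 genes below, where 33.6% and 32.6% of all tested genes did so. The genes were chosen with earlier results of these arrays known, so these counts describe the list and are no independent evidence of its direction. The 17 dimmer tested genes, with means of 5.48 to 9.29 log2 as deposited, held 10 of the 15 rises, and the 17 brighter ones held 5. The rises of all tested genes were not split by brightness, so this split is not shown to be particular to the list.

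**Figure D1:**
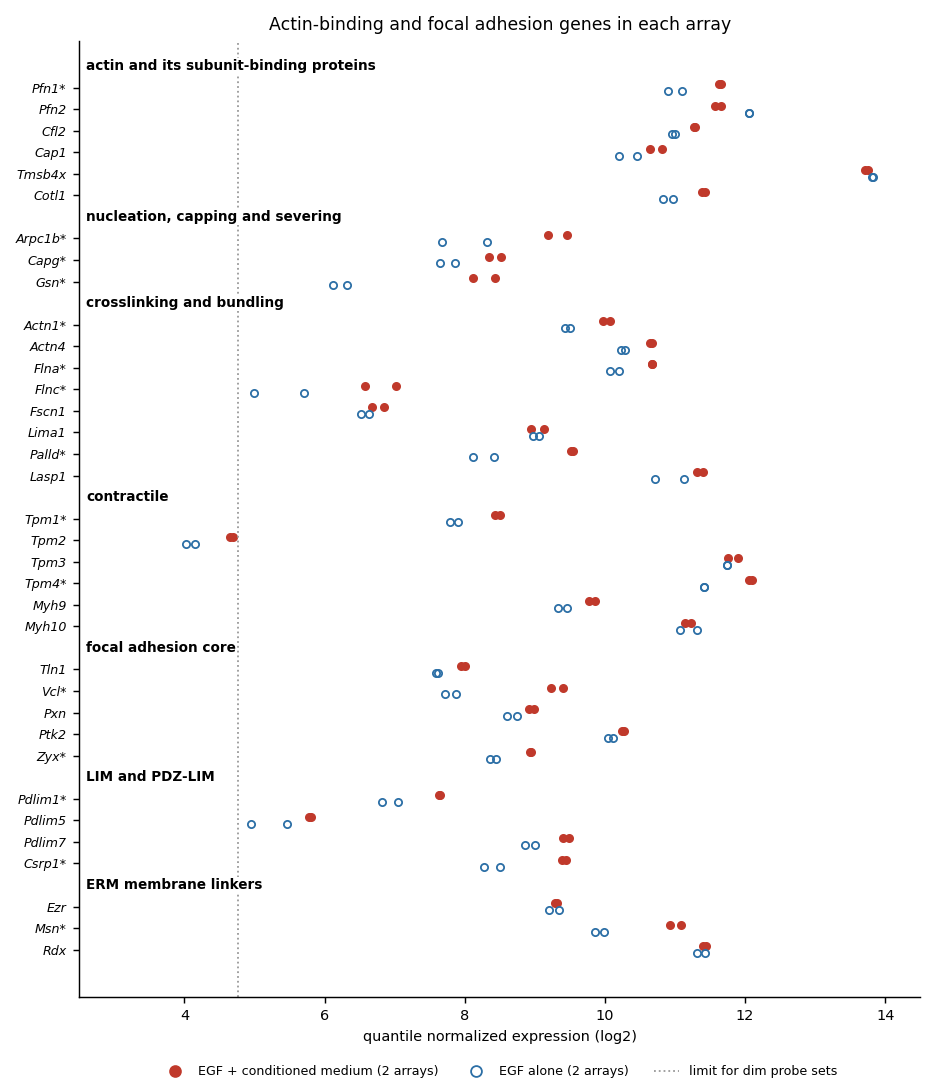
Quantile normalized log2 expression (horizontal axis) of the 35 genes with a probe set of 1 symbol, grouped by role, with 1 point for each array: filled for EGF with conditioned medium, open for EGF alone. Asterisks mark the 15 genes that rose, and the dotted line is the 4.77 log2 limit for dim probe sets. The filled points lie to the right of the open ones for Gsn, Vcl, Palld and Msn, and the groups overlap for Lima1, Myh10, Ezr and Rdx.

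**Figure D2:**
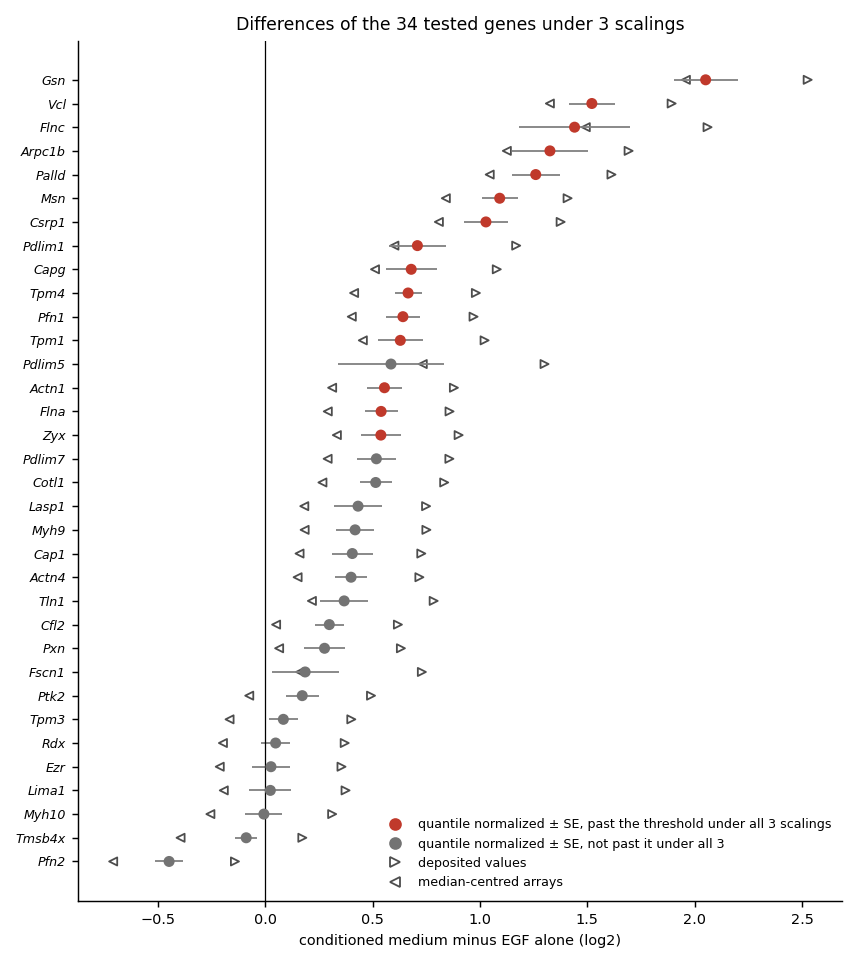
Difference between conditioned medium and EGF alone (log2) for the 34 tested genes. Circles with bars are quantile normalized differences with their SE, in red for the 15 genes past the threshold under all 3 scalings, and triangles are deposited (right-pointing) and median-centred (left-pointing) differences. Gsn leads at 2.05 log2 and Pfn2 is lowest at -0.45 log2.

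To show the DNA in front of some of these genes, promoter sequences from RefSeq (assembly GRCr8, 250 bases before to 50 after the annotated start) were searched on both strands. The CArG box was searched as the site of serum response factor (SRF), which together with its actin-sensing cofactors drives many cytoskeletal genes. GGAATG was searched as the core motif of the TEAD factors, which act with YAP. GGAATG includes GGAA, the core of ETS factor sites, so its letters are not particular to TEAD. The table had entries for 34 of the 40 genes, 14 of them among the 15 that rose, and none for Actb, Cap1, Capg, Actn4, Lasp1 and Ptk2. GGAATG or its complement was present in 7 of 14 genes that rose (Vcl, Flnc, Palld, Tpm1, Pfn1, Flna and Zyx), in 1 of 15 tested genes that did not (Myh10), and in 15.0% of all genes in the table. Its presence was not tested against the response. A CArG box was present in 1 gene of the list, Lima1, which did not rise, and in 1.77% of all genes. Windows of 60 bases are printed for the strong responders that hold the motif, for Pfn1, and for the 2 genes with a match that did not rise, with the matched letters in capitals:
Vcl: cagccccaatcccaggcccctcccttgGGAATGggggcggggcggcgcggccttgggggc
Flnc: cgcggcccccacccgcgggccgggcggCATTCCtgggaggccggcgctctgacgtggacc
Palld: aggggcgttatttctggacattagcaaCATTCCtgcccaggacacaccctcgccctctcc
Pfn1: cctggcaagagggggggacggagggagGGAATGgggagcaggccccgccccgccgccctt
Myh10: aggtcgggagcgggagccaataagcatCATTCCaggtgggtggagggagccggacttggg
Lima1: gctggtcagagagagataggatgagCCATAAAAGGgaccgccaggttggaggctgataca

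Each window is read 5′ to 3′ on the gene's strand, upstream of the annotated start. They lie at chr15:3404935-3404994 (minus strand, Vcl), chr4:58999399-58999458 (plus, Flnc), chr16:33380657-33380716 (plus, Palld, 1 of several annotated starts), chr10:55866657-55866716 (minus, Pfn1), chr10:53893119-53893178 (plus, Myh10) and chr7:132880518-132880577 (minus, Lima1). The motif starts 167 bases before the annotated start in Vcl, 121 in Flnc, 90 in Palld, 102 in Pfn1, 118 in Myh10 and 209 in Lima1. The CArG box was searched as CC, 6 of A or T, and GG. A match describes the letters in this window and no more. Only these exact letters in the searched bases were counted, so a gene without a match is not shown to lack a site.

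Counts by role, here and below, are of at most 8 genes each and are read against the 9.12% of all tested genes that rose. Among genes that handle actin subunits, 1 of 6 tested rose. Profilin 1 (Pfn1), which loads actin subunits with ATP and brings them to growing filament ends, was at 11.65 and 11.63 log2 with conditioned medium, against 11.10 and 10.90 log2 with EGF alone. The groups did not overlap, and Pfn1 rose by 0.64 ± 0.08 log2 (SE, limma adjusted p = 1.56e-04). Profilin 2 (Pfn2), the form that is abundant in neurons, was at 11.56 and 11.65 log2 with conditioned medium, against 12.06 and 12.06 log2 with EGF alone. Pfn2 was thus lower in both conditioned-medium arrays (-0.45 ± 0.06 log2 SE, adjusted p = 4.08e-04), but its deposited difference of -0.14 log2 did not pass the threshold. A second probe set of Pfn2 differed by -0.21 log2 after quantile normalization and by 0.16 log2 as deposited, so its direction turned with the scaling. Tmsb4x, the thymosin that holds actin subunits in reserve, was at 13.70 and 13.76 log2 with conditioned medium, against 13.82 and 13.81 log2 with EGF alone. Its difference of -0.09 ± 0.05 log2 (SE) turned to 0.17 log2 on deposited values, so its direction depended on the scaling.

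The muscle-type cofilin Cfl2, which disassembles filaments, differed by 0.30 ± 0.07 log2 (SE), with 11.27 and 11.28 log2 in conditioned-medium arrays, against 11.00 and 10.96 log2 in EGF arrays. Cap1, which recycles cofilin-bound actin, differed by 0.41 ± 0.10 log2 and the coactosin Cotl1 by 0.51 ± 0.07 log2 (SE). In these 3 genes both conditioned-medium arrays lay above both EGF arrays, as they did in 33.6% of all tested genes. The second probe set of Cfl2 differed by 0.14 log2 and overlapped between the groups, and that of Cap1 differed by 0.50 log2 without overlap. None of the 3 passed the threshold with median-centred arrays, where the differences were 0.05, 0.16 and 0.27 log2. Outside the array's controls, beta-actin (Actb) itself has no probe set with 1 symbol. The 3′ control probe set that the array's makers designed on rat beta-actin read 13.67 and 13.70 log2 with conditioned medium, against 13.61 and 13.63 log2 with EGF alone. Gamma-actin (Actg1), from a list of related genes and named after its values were seen, read 13.90 and 13.98 log2 with conditioned medium, against 13.98 and 13.95 log2 with EGF alone, and the groups overlapped.

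All 3 genes grouped here under nucleation, capping and severing rose. Cfl2, which disassembles filaments, was counted above among the genes that handle actin subunits. The capping protein subunits Capza1, Capza2 and Capzb, from a list of related genes, differed by 0.03, 0.13 and 0.16 log2 and did not rise. Gsn, a calcium-dependent severing protein, was at 8.43 and 8.12 log2 with conditioned medium, against 6.32 and 6.13 log2 with EGF alone. That is a rise of 2.05 ± 0.15 log2 (SE, limma adjusted p = 6.07e-06), and it placed Gsn at percentile 46.7 and 41.0 of the tested genes with conditioned medium, against 17.6 and 15.8 with EGF alone. These ranks within an array do not overlap between the groups. Arpc1b, a subunit of the Arp2/3 complex that starts branched filaments, was at 9.45 and 9.18 log2 with conditioned medium, against 8.31 and 7.67 log2 with EGF alone (1.33 ± 0.18 log2 SE, adjusted p = 2.65e-04). The EGF arrays differed by more than the conditioned-medium arrays, and leaving out single arrays moved the difference between 1.01 and 1.64 log2. Capg, a gelsolin relative that caps filament ends and is abundant in macrophages, was at 8.51 and 8.35 log2 with conditioned medium, against 7.65 and 7.86 log2 with EGF alone (0.68 ± 0.12 log2 SE, adjusted p = 0.0014).

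Other subunits of the Arp2/3 complex were read from a list of related genes. None of the 5 with a tested probe set rose. Their differences were 0.06 log2 for Actr2, 0.05 log2 for Arpc2, 0.19 log2 for Arpc3, 0.26 log2 for Arpc4 and 0.23 log2 for Arpc5. With median-centred arrays Actr2, Arpc2, Arpc3 and Arpc5 turned below 0. Arpc1b lay 1 log2 or more above each of them in its difference, but the differences between subunits were not tested.

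Of the 8 crosslinking and bundling genes 4 rose. Filamin C (Flnc), the filamin best known from muscle, was at 6.57 and 7.01 log2 with conditioned medium, against 5.71 and 4.99 log2 with EGF alone. The rise of 1.44 ± 0.26 log2 (SE, adjusted p = 0.0017) came with the widest spread among the genes that rose, and it was lost without ECCM replicate 2 (1.22 log2) and without EGF replicate 2 (1.08 log2). Its dimmer second probe set, at a mean of 5.22 log2 as deposited, differed by 0.35 log2. Filamin A (Flna), the filamin of most non-muscle cells, was at 10.67 and 10.67 log2 with conditioned medium, against 10.07 and 10.19 log2 with EGF alone (0.54 ± 0.08 log2 SE, adjusted p = 4.08e-04). Its call was lost without ECCM replicate 2 or either EGF array.

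Palladin (Palld), a scaffold that binds alpha-actinin along stress fibres, was at 9.54 and 9.52 log2 with conditioned medium, against 8.42 and 8.12 log2 with EGF alone. It rose by 1.26 ± 0.11 log2 (SE, limma adjusted p = 2.14e-05), and the groups stood more than 1 log2 apart. Alpha-actinin 1 (Actn1) rose by 0.55 ± 0.08 log2, with 9.97 and 10.07 log2 in conditioned-medium arrays, against 9.50 and 9.43 log2 in EGF arrays. Alpha-actinin 4 (Actn4) was at 10.67 and 10.64 log2 with conditioned medium, against 10.28 and 10.23 log2 with EGF alone, and its difference of 0.40 ± 0.07 log2 (SE) did not pass with median-centred arrays. The adaptor Lasp1 differed by 0.43 ± 0.11 log2, fascin (Fscn1), which bundles filaments in filopodia, by 0.19 ± 0.16 log2, and Lima1 by 0.02 ± 0.10 log2 (SE). These 3 did not pass under all scalings. Lasp1 rested on single arrays: it differed by 0.64 log2 and passed without EGF replicate 1, and differed by 0.22 log2 without EGF replicate 2.

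Among contractile genes 2 of 5 tested rose, both of them tropomyosins, the coiled-coil proteins that line actin filaments. Tpm4 was at 12.05 and 12.10 log2 with conditioned medium, against 11.41 and 11.42 log2 with EGF alone (0.66 ± 0.06 log2 SE, limma adjusted p = 2.99e-05), and its second probe set differed by 0.75 log2. Tpm1 was at 8.43 and 8.51 log2 with conditioned medium, against 7.78 and 7.90 log2 with EGF alone (0.63 ± 0.11 log2 SE, adjusted p = 0.0012). Its 4 other probe sets above the brightness limit were higher with conditioned medium by 0.73 to 1.25 log2.

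Tpm3 behaved unlike both. Its brightest probe set was at 11.76 and 11.90 log2 with conditioned medium, against 11.75 and 11.75 log2 with EGF alone, a difference of 0.08 ± 0.07 log2 (SE). Of its 11 probe sets above the limit, 6 were higher and 3 lower in both conditioned-medium arrays, from -0.55 to 0.62 log2. The probe sets of Tpm3 therefore did not move in 1 direction after quantile normalization. As deposited, all of them but 1 were higher with conditioned medium. Tpm2, too dim to be tested, read 4.65 and 4.69 log2 with conditioned medium, against 4.02 and 4.15 log2 with EGF alone. The non-muscle myosin heavy chain Myh9 was at 9.86 and 9.77 log2 with conditioned medium, against 9.45 and 9.33 log2 with EGF alone. Its difference of 0.42 ± 0.09 log2 (SE) did not pass with median-centred arrays. Myh10, the heavy chain that is prominent in brain, was at 11.15 and 11.22 log2 with conditioned medium, against 11.32 and 11.07 log2 with EGF alone, and its groups overlapped.

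In the focal adhesion core 2 of 5 genes rose. Vcl, which locks talin to actin filaments, was at 9.23 and 9.41 log2 with conditioned medium, against 7.72 and 7.88 log2 with EGF alone. It rose by 1.52 ± 0.11 log2 (SE, limma adjusted p = 4.97e-06), and 2 further probe sets were higher by 0.71 and 1.01 log2. Vcl stood at percentile 63.3 and 66.9 of the tested genes with conditioned medium, against 34.9 and 37.2 with EGF alone. Zyxin (Zyx), a LIM protein that gathers where adhesions are under tension, rose by 0.54 ± 0.09 log2 (SE, adjusted p = 0.0015), with 8.94 and 8.95 log2 in conditioned-medium arrays, against 8.37 and 8.44 log2 in EGF arrays.

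Talin (Tln1), which activates integrins, differed by 0.37 ± 0.11 log2 (SE), the adaptor paxillin (Pxn) by 0.28 ± 0.10 log2 and FAK (Ptk2) by 0.17 ± 0.08 log2. In each of the 3 both conditioned-medium arrays lay above both EGF arrays, as they did in 33.6% of all tested genes. With median-centred arrays the differences were 0.22, 0.06 and -0.07 log2 and did not pass.

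Of 4 LIM and PDZ-LIM genes 2 rose. Csrp1, a LIM protein that binds alpha-actinin and zyxin, was at 9.44 and 9.38 log2 with conditioned medium, against 8.27 and 8.50 log2 with EGF alone (1.03 ± 0.10 log2 SE, limma adjusted p = 4.58e-05). Pdlim1, which binds alpha-actinin through its PDZ domain, was at 7.65 and 7.64 log2 with conditioned medium, against 7.05 and 6.82 log2 with EGF alone (0.71 ± 0.13 log2 SE, adjusted p = 0.0024). Pdlim7 was at 9.41 and 9.48 log2 with conditioned medium, against 9.00 and 8.85 log2 with EGF alone. Its difference of 0.52 ± 0.09 log2 (SE) narrowly missed the threshold with median-centred arrays (adjusted p = 0.0526), while its second probe set was higher by 1.19 log2. Pdlim5, near the brightness limit, was at 5.78 and 5.80 log2 with conditioned medium, against 5.46 and 4.95 log2 with EGF alone, and differed by 0.59 ± 0.25 log2 (SE). It passed on deposited and median-centred values but not after quantile normalization (adjusted p = 0.0978), and its difference was 0.33 log2 without EGF replicate 2 and 0.84 log2 without EGF replicate 1. Without EGF replicate 1, Pdlim7 and Cotl1 passed under all 3 scalings.

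Ezrin, moesin and radixin link filaments to membrane proteins, and 1 of the 3 rose. Msn was at 11.09 and 10.93 log2 with conditioned medium, against 9.86 and 9.98 log2 with EGF alone. It rose by 1.09 ± 0.08 log2 (SE, limma adjusted p = 8.16e-06), and its dimmer second probe set was higher by 0.82 log2. Ezr was at 9.32 and 9.28 log2 with conditioned medium, against 9.20 and 9.35 log2 with EGF alone, and differed by 0.03 ± 0.09 log2 (SE). Rdx was at 11.39 and 11.44 log2 with conditioned medium, against 11.32 and 11.42 log2 with EGF alone (0.05 ± 0.07 log2 SE). The groups overlapped in Ezr and Rdx, and both differences turned below 0 with median-centred arrays.

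Paralogues can be set side by side within an array, where an equal shift of the whole array drops out of their ratio. The ratio of Pfn1 to Pfn2 was higher with conditioned medium by 1.11 log2 as deposited, and by at least 0.95 log2 in each pairing of a conditioned-medium with an EGF array. Msn over Rdx was higher by 1.04 log2 and Ezr over Msn lower by 1.05 log2, while Ezr over Rdx differed by -0.01 log2 and overlapped between the groups. Tpm1 over Tpm3 was higher by 0.62 log2 and Tpm3 over Tpm4 lower by 0.58 log2. Both rest on the brightest probe set of Tpm3: over its 11 probe sets above the limit, the change of Tpm1 over Tpm3 ran from 0.02 to 1.06 log2, and that of Tpm3 over Tpm4 from -1.02 to 0.02 log2. The ratio of Myh9 to Myh10 was higher by 0.44 log2, that of Actn1 to Actn4 higher by 0.16 log2, and that of Flna to Flnc lower by 1.20 log2. After quantile normalization the change of Flna over Flnc was -0.90 log2. It rests on the brightest probe set of Flnc: after quantile normalization the second one differed by 0.35 log2, less than Flna with 0.54 log2. Of 13 such pairs 11 did not overlap between groups as deposited, where 69% of all pairs of tested genes did not, including Pdlim1 over Pdlim5, whose change of -0.13 log2 was 0.12 log2 after quantile normalization. With 2 arrays against 2 an exact two-sided permutation test cannot go below p = 0.333, so the pairs were not tested.

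**Figure D3:**
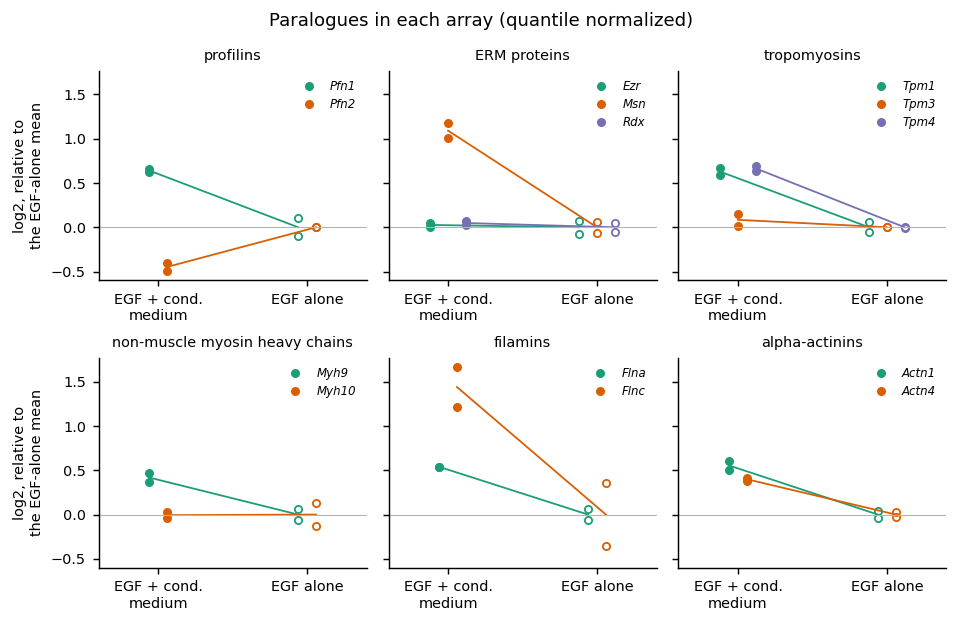
Quantile normalized log2 level of paralogues in each array, relative to the gene's own mean with EGF alone (vertical axis), with conditioned medium at the left (filled) and EGF alone at the right (open). Lines join group means. Pfn1 and Pfn2 diverge, Msn lies about 1 log2 above Ezr and Rdx, and Tpm1 and Tpm4 lie above Tpm3.

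The genes had further probe sets that the choice by brightness passed over. The 35 genes had 75 probe sets with 1 symbol, 40 of them beyond the brightest, in 18 genes, and 31 of the 40 were above the brightness limit. All 10 of these that belong to genes that rose were higher with conditioned medium (median 0.76 log2, from 0.35 to 1.25 log2), and they cover Actn1, Flnc, Msn, Tpm1, Tpm4 and Vcl. Over all tested genes that rose, 89.8% of 325 such probe sets were higher, so these 10 were grouped by a call already made and are a description. Of the 21 that belong to the other genes 14 were higher (median 0.14 log2, from -0.55 to 1.19 log2), against 48.6% for all tested genes that did not rise. The probe sets of a gene share its arrays and are no replicates.

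**Figure D4:**
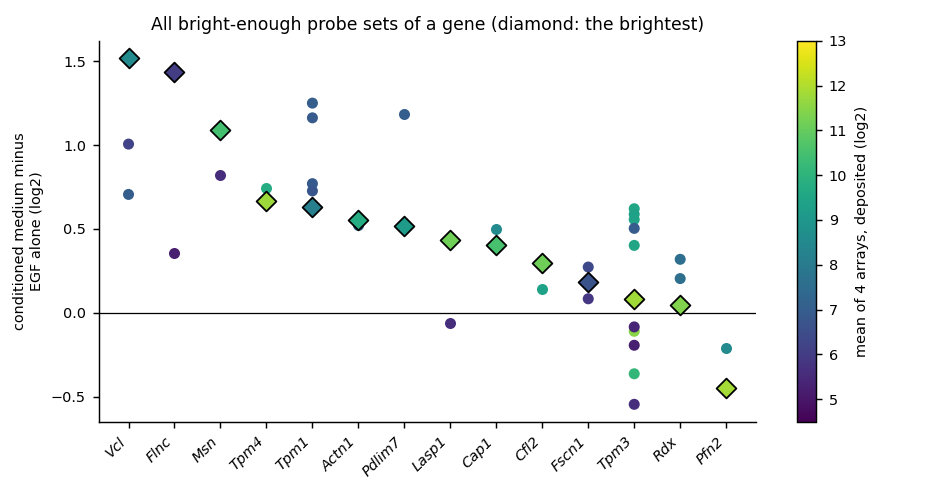
Difference between conditioned medium and EGF alone (log2, vertical axis) for every probe set above the brightness limit in genes of the list with more than 1 of them. Diamonds are the brightest probe sets and circles the others, coloured by deposited mean. Tpm3 spreads from -0.55 to 0.62 log2, and all circles of Vcl, Flnc, Msn, Tpm4, Tpm1 and Actn1 lie above 0.

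Other genes of actin control and adhesion were read from 3 lists of 81 genes, of which 75 were tested. With conditioned medium 9 of the 75 rose and 0 fell, near the 9.12% and 1.78% of all tested genes, and the median difference was 0.16 log2. The counts below are read against the same 9.12%. At an unadjusted limma p under 0.05, 0 were lower under all 3 scalings and as deposited, 7 after quantile normalization and 21 with median-centred arrays, where 19.9% of all tested genes were lower after quantile normalization and 38.4% with median-centred arrays. Among 28 adhesion partners 5 rose (median 0.28 log2), namely Lims1 (0.72 log2) and Parva (0.64 log2), which sit with the kinase Ilk at integrin tails, tensin Tns1 (1.01 log2), Fblim1 (0.98 log2) and Kank2 (0.87 log2). Ilk itself was not among them. Caveolin (Cav1) differed by 0.47 ± 0.08 log2 (SE) and did not pass with median-centred arrays.

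Among 27 further filament regulators 2 rose (median 0.13 log2), no larger a share than the 9.12% of all tested genes. Caldesmon (Cald1), which binds tropomyosin-coated filaments, was at 10.47 and 10.41 log2 with conditioned medium, against 9.21 and 9.05 log2 with EGF alone (1.31 ± 0.09 log2 SE, limma adjusted p = 3.06e-06). Vasp, which extends filaments at adhesions, rose by 0.59 ± 0.09 log2 (SE), while its relative Evl was lower after quantile normalization (-0.38 ± 0.07 log2 SE) without passing on deposited values. The call of Vasp was lost without ECCM replicate 2 or EGF replicate 1, and that of Parva without EGF replicate 2. Wdr1, a cofilin partner, differed by 0.34 ± 0.07 log2 (SE) and did not pass under all scalings.

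Of 20 upstream regulators, among them kinases, formins and the SRF cofactors, 2 rose, a share near the 9.12% of all tested genes, and the median difference was 0.01 log2. Rhoc was at 9.39 and 9.43 log2 with conditioned medium, against 8.56 and 8.50 log2 with EGF alone (0.89 ± 0.09 log2 SE, limma adjusted p = 4.87e-05). The formin Diaph3, which lengthens unbranched filaments, rose by 0.73 ± 0.12 log2 (SE, adjusted p = 0.0012). Rhoa (0.39 ± 0.07 log2 SE) and Rhob (0.42 ± 0.07 log2 SE) were higher in both conditioned-medium arrays, as were 33.6% of all tested genes. Neither passed with median-centred arrays. Srf differed by 0.14 ± 0.09 log2, its cofactor Mrtfa by -0.15 ± 0.10 log2 and the kinase Rock1 by 0.28 ± 0.21 log2 (SE), and Mrtfb had no probe set with 1 symbol. These are RNA levels, and the activity of the proteins, SRF and its cofactors included, was not measured.

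**Figure D5:**
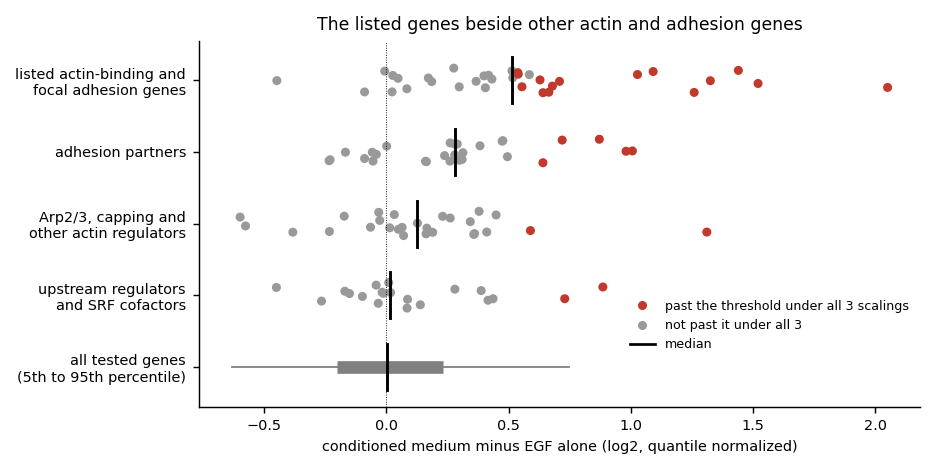
Difference between conditioned medium and EGF alone (log2, quantile normalized, horizontal axis) for the 34 tested genes of the list and for 3 lists of other actin and adhesion genes, with 1 point for each gene, in red for those that rose. Black bars are medians, of 0.52 log2 for the listed genes and 0.00 log2 for all tested genes, whose 5th to 95th percentiles (line) and quartiles (box) are drawn in the last row.

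The calls of 7 genes, Gsn, Vcl, Arpc1b, Palld, Msn, Csrp1 and Tpm4, held with any 1 of the 4 arrays left out. The other 8 were lost with at least 1 array left out: Pfn1, Actn1 and Flnc without ECCM replicate 2 or EGF replicate 2, Flna without ECCM replicate 2 or either EGF array, Zyx without EGF replicate 1 or either ECCM array, Pdlim1 without either ECCM array, Capg without ECCM replicate 1 and Tpm1 without ECCM replicate 2. Without ECCM replicate 2 the count of rises was 8, and without the other arrays it was 11 to 16.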

How the data were processed

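RNA of 4 neurosphere cultures was hybridized to Affymetrix Rat 230 2.0 arrays. The authors deposited log2 values made by RMA in GenePattern, per the labels and the study's design text; version and options are not given in the sources used here. These log2 values were used as deposited, quantile normalized, and centred on array medians. Of 31099 probe sets, 57 are controls. With the controls left out, 20826 had 1 symbol. Over all probe sets, controls included, 436 had several symbols and 9831 had none. Gene IDs of 34 of the 35 genes matched RefSeq (GRCr8), and Myh9 matched by symbol. Conditioned medium minus EGF was tested with limma 3.58.1 in R 4.3.3 (intensity trend, two-sided, Benjamini-Hochberg over all 11491 genes), without a block. With 2 arrays a group, the number of arrays limits the precision. On deposited values each gene's variance came wholly from the trend. The limma fit alone was tried on data simulated from the quantile normalized values. The rule that asks for all 3 scalings was not simulated. Members and lists were chosen with earlier results of these data known. Named with values in each array were genes that rose by at least 1 log2, paralogues and the lowest differences. Of each further list the 4 genes with the smallest p were named, with Srf, Mrtfa, Mrtfb, Rhoa and Rock1. Fblim1, Kank2, Ilk, Capza1, Capza2, Capzb, the Arp2/3 subunits and the levels of Kdr were named after their values were seen. Capg and Zyx were given values in each array after their values were seen.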

Additional observations from a re-analysis of the deposited data

How the results depend on the processing

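The count of 15 rises was 14 with the replicate as a block (Flna was lost), 15 without a brightness filter, 14 with the lowest 50% left out, 16 with the mean of all probe sets of a gene and 11 without an intensity trend. By single scalings, the deposited values gave 29 higher genes of the list, 44 of the related lists and 4643 of all. Quantile normalized values gave 23 higher and 1 lower of the list (Pfn2), 27 and 4 of the related lists, and 1890 and 1672 of all. Median-centred arrays gave 16 higher of the list, 9 of the related lists and 1176 of all, and 2 lower of the list (Pfn2 and Tmsb4x), 16 lower of the related lists and 3704 lower of all, so 24.1% of calls were higher there, with 95.8% as deposited and 53.1% after quantile normalization. Against calls under all 3 scalings, the higher counts with median-centred arrays moved little (15, 9 and 1048), and the lower count of all genes went far above 205. With single arrays left out, 8 to 16 genes of the list, 7 to 8 of the related lists and 549 to 904 of all genes rose, and 43 to 104 of all genes fell. Genes that fell numbered 205 of all, 28 with the replicate block and 130 without an intensity trend. The cause of these moves was not tested. Same-numbered arrays had correlated deviations of -0.12 as deposited and -0.03 after quantile normalization over 2 pairs, so the numbers are not shown to pair the arrays. With crossed numbers as a block, chosen after seeing the data, 17 genes of the list and 1174 of all rose and 441 fell. Small differences turned sign: on deposited values Tmsb4x (0.17), Myh10 (0.31) and Mrtfa (0.21 log2); with median-centred arrays Lima1 (-0.19), Tpm3 (-0.17), Ptk2 (-0.075), Ezr (-0.21), Rdx (-0.20) and Srf (-0.10 log2); with the mean of all probe sets Srf (-0.054 log2). With single arrays left out, Myh10 ranged from -0.13 to 0.12 log2, Lima1 from -0.072 to 0.12 log2, Ezr from -0.046 to 0.099 log2 and Rdx from -0.0026 to 0.099 log2. No gene of the list that rose turned sign under any alternative. The crossed numbers are left aside here, because differences of single genes were not recorded with them. Tpm2, under the brightness limit, was not tested.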
